A study of Homo sapiens with 9 samples.

Results

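The genes described here encode 9 proteins that build or restrain pericellular proteolysis, the local breakdown of extracellular matrix that lets tumour cells move through tissue. They are the matrix metalloproteinases MMP1, MMP2, MMP3 and MMP14, the urokinase PLAU and its receptor PLAUR, and the tissue inhibitors of metalloproteinases TIMP1, TIMP2 and TIMP3. They were chosen by name, as the rows of the count table whose Ensembl identifier maps to these symbols, and all 9 were found among 60708 genes. A filter on low counts left 20812 genes for testing, 8 of the 9 among them. MMP2 did not pass it. MMP3 passed it only through the recovery libraries, where it is high, so MMP3 is described without a test and is left out of the counts of genes called.

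RNA was measured in MDA-MB-231, an established human cell line from a triple-negative breast cancer, a class of tumour defined in part by its lack of oestrogen and progesterone receptors. One group of 3 libraries came from cells given the solvent DMSO. A second group of 3 came from cells given 10 nM pladienolide B (PdB) for 16 h, and the last 3 from cells collected after 24 h of recovery from PdB. The labels give no duration for DMSO, and the same DMSO libraries are the control for PdB and for recovery. In recovery against DMSO, effects of PdB and of time in culture therefore cannot be told apart. PdB is a macrolide that blocks the splicing factor SF3B1, the subunit of the U2 particle that grips the branch point of an intron. All groups shared the same serum-containing medium, and the labels name no genetic change. A single line in culture lacks the stromal and immune cells that supply many of these proteases in a tumour. The labels number the libraries within a group but do not say whether they came from separate cultures, so p-values measure only the spread between these libraries.

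Urokinase, bound to its receptor at the cell surface, cuts plasminogen to plasmin, and plasmin in turn cuts matrix proteins and activates several pro-enzymes of the metalloproteinase family. MMP14, also called MT1-MMP, is anchored in the membrane, cleaves fibrillar collagen and activates pro-MMP2 in a complex with TIMP2. MMP1 (interstitial collagenase) and MMP3 (stromelysin-1) are secreted, as is MMP2 (gelatinase A), and the TIMPs bind the active site of metalloproteinases as tight inhibitors.

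Levels are given as CPM, read counts scaled to a common library size with the trimmed mean of M-values (TMM). Where genes are compared with each other, RPKM, the CPM divided by the kilobases of annotated exon, are used. Changes are log2 fold changes with their standard error (SE) from edgeR's quasi-likelihood test over all 20812 genes, two-sided, and a gene is called higher or lower where the Benjamini-Hochberg adjusted p is under 0.05. The table counts reads per gene, so it shows neither splicing nor protein. Total counts per library ran from 56389689 to 67047079. The defining receptor gene ESR1 had 0 counts in all 9 libraries and PGR at most 4, while VIM, CD44, AXL, CAV1, KRT18 and EGFR were abundant, with a summed level of 7599 to 7730 CPM in DMSO, 5788 to 5899 in PdB and 3877 to 3992 at recovery. The epithelial genes CDH1, EPCAM and GATA3, listed as low in such a line, passed the filter. With ESR1 and PGR they summed to 17.7 to 20.9 CPM in DMSO, 49.8 to 53.7 in PdB and 25.3 to 26.9 at recovery. GATA3 was called higher in PdB (log2 change 1.77). At recovery against DMSO, CDH1 and GATA3 were called higher and EPCAM lower. The mitochondrial share of counts was 5.21% ± 0.484 (SD, n = 3) in DMSO, against 7.6% ± 0.866 in PdB and 8.12% ± 0.0866 at recovery. Its part in the results was not tested.

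Promoter sequence was held by the RefSeq table (GRCh38.p14) for 5 of the 9 genes, PLAU with a pair of windows. MMP1, MMP2, MMP3 and TIMP2 are named only. Each window runs from 250 bases before to 50 after an annotated start. The first 3 stretches below leave out bases that GENCODE 29 places in an exon of the gene. The sequences are shown because PLAU and MMP14 fell with PdB and were still low at recovery, TIMP1 rose with PdB only to overlap DMSO at recovery, and PLAUR rose at recovery. In the first 3, capitals mark the GC box GGGCGG or its reverse complement. They are PLAU chr10:73910882-73911103, MMP14 chr14:22836335-22836556 and TIMP1 chrX:47582186-47582312, all on the plus strand.
PLAU: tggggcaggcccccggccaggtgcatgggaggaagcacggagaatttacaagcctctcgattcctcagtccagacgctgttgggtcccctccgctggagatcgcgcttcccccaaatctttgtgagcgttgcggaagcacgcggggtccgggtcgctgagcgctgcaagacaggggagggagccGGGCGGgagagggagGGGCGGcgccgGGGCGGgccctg
MMP14: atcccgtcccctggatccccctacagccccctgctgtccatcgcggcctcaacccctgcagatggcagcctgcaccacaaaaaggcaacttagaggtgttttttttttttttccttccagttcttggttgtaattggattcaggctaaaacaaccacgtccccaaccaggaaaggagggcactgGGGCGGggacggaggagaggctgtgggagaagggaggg
TIMP1: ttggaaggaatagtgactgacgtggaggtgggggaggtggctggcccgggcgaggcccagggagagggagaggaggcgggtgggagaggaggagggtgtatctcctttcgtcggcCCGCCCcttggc

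The AP-1 motif, the binding site of FOS and JUN family dimers, is the motif for which the promoters of collagenase, stromelysin and urokinase genes are best known. It was searched as TGANTCA on both strands. Among the 6 windows it was present in that of PLAUR alone, as TGAGTCA with its first base 186 bases before the start, at chr19:43670338-43670366 on the minus strand. Of 35116 windows of 300 bases, 7.71% hold it. The collagenase and stromelysin genes MMP1 and MMP3 have no window here, and bases outside the windows were not searched. Its absence from the PLAU windows therefore does not show that PLAU lacks such a site elsewhere. The TIMP1 window holds the variant TGAGTAA, first base 101 before the start, within chrX:47582324-47582352. The variant form TGANTAA is in 9.55% of windows. In the next pair of sequences, of 29 bases each, capitals mark these matches. Both lie wholly within exon bases of GENCODE 29, whose transcripts of PLAUR and TIMP1 begin further upstream than the start used by these windows. PLAU too begins further upstream in GENCODE 29, at base 73909177. The printed PLAU stretch thus lies within the span of the gene, though in no exon.
PLAUR: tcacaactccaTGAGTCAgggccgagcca
TIMP1: tggtgggtggaTGAGTAAtgcatccagga
The GC box was present 3 times in the printed window of PLAU, 1 time in MMP14, 2 times in TIMP1 (the second copy lies outside the printed stretch) and 5 times in TIMP3, and was absent from PLAUR and from the other PLAU window. It is in 45% of all windows. The variant and the GC box were chosen after these sequences had been seen, and a match describes letters only.

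Per length, the order of the 9 genes in DMSO was TIMP1 at 127 RPKM, PLAU at 126, MMP14 at 95.04, TIMP2 at 88.7, TIMP3 at 48.1, PLAUR at 17.1, MMP1 at 2.19, MMP2 at 0.0078 and MMP3 at 0. The libraries of TIMP1 and PLAU overlapped, so these neighbours could not be ordered. In PdB the order became TIMP1 (237 RPKM), TIMP2 (135), MMP14 (54.5), TIMP3 (35.6), PLAU (17.9), PLAUR (16.3) and MMP1 (2.62), and the libraries of PLAU and PLAUR overlapped. At recovery TIMP1 stood at 129 RPKM, TIMP2 at 59.8, MMP14 at 51.1, TIMP3 at 35.0, PLAU at 30.6, PLAUR at 22.7 and MMP1 at 7.76, with the libraries of TIMP3 and PLAU overlapping. PLAU, level with the highest gene of the set in DMSO, stood beside its own receptor in PdB.

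**Figure D1:**
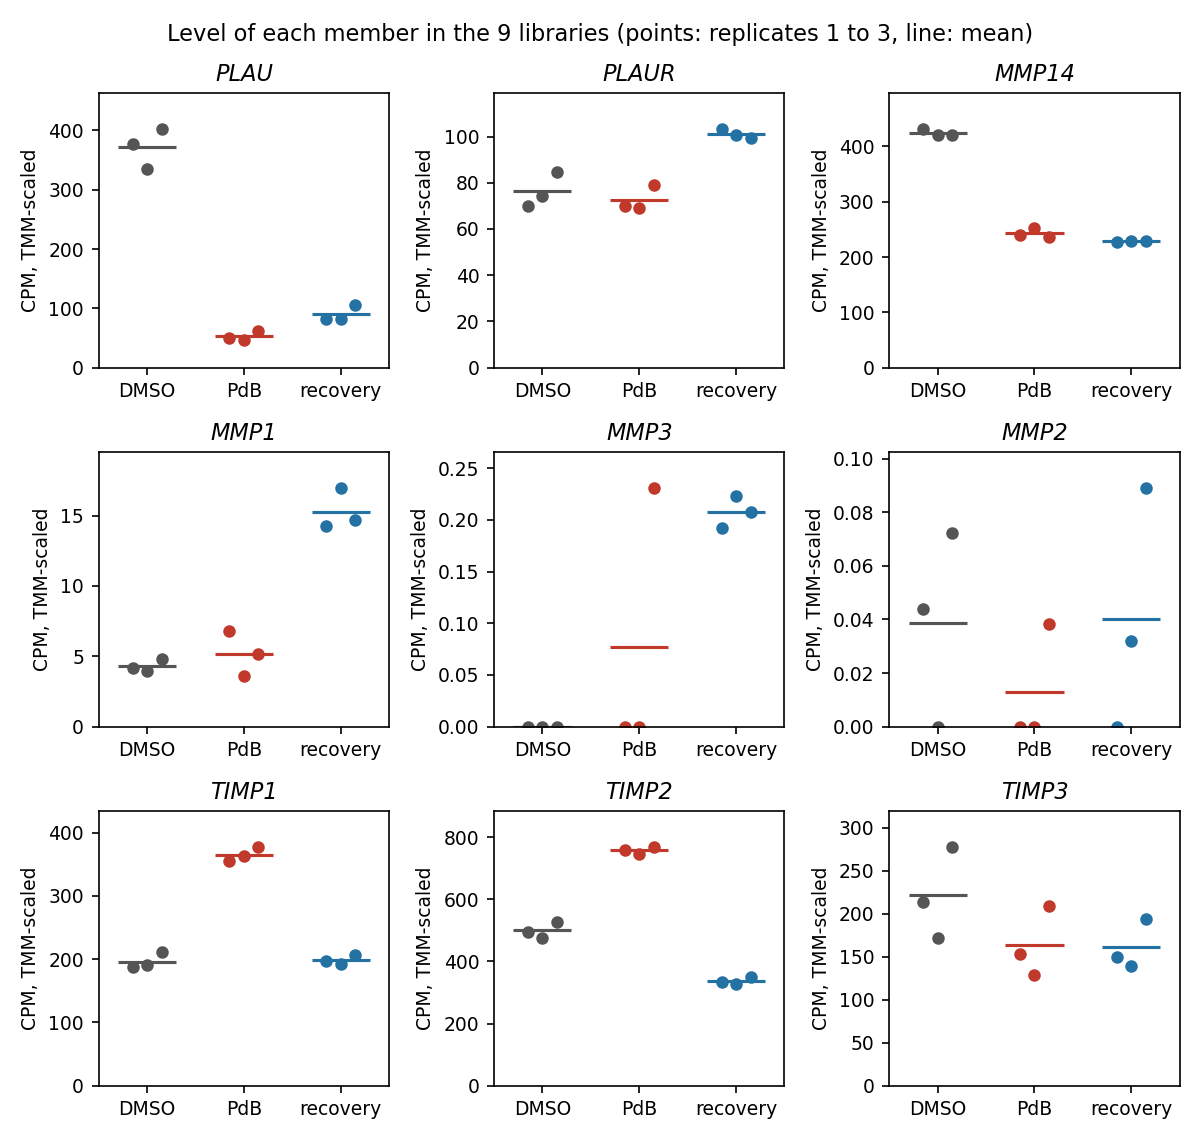
Each panel plots 1 gene, with TMM-scaled CPM on the vertical axis and the 3 groups on the horizontal axis; points are single libraries in the order of their label numbers and the line is the mean. PLAU drops from 336 to 402 CPM in DMSO to 47.4 to 61.2 in PdB, TIMP1 and TIMP2 are highest in PdB, and MMP1 is highest at recovery.

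Compared with DMSO, 16 h of PdB lowered PLAU 7.05-fold and MMP14 1.75-fold, and raised TIMP1 and TIMP2. At recovery PLAU and MMP14 were still low, TIMP1 overlapped DMSO, TIMP2 was below DMSO, and MMP1 and PLAUR were above it. In PdB against DMSO, 2 of the 7 genes tested without MMP3 were called higher (TIMP1 and TIMP2) and 3 lower (PLAU, MMP14 and TIMP3), where 70.1% of all genes tested were called, 32% higher and 38.2% lower. In recovery against DMSO, 2 were called higher (MMP1 and PLAUR) and 4 lower (PLAU, MMP14, TIMP2 and TIMP3), against 61.2% of all genes called, 30.7% higher and 30.5% lower. In recovery against PdB, 3 were higher (PLAU, PLAUR and MMP1) and 2 lower (TIMP1 and TIMP2), against 66.1% of all genes, 34.6% higher and 31.5% lower. With so many genes called, the number of members called is near the background, and what follows gives the size and course of each gene. A called change of at least 2-fold was fitted for 1 of the 7 in PdB (PLAU), 2 at recovery against DMSO (PLAU and MMP1) and 2 between PdB and recovery (MMP1 and TIMP2), beside 39.7%, 25.4% and 32.9% of all genes. The libraries of the groups compared did not overlap for 4, 5 and 6 of the 7, and for 72.5%, 70.4% and 70.5% of all genes. The calls for TIMP3 in both comparisons with DMSO did not hold under several other settings, given with that gene. The scaling moved the median log2 change of all genes in PdB against DMSO from -0.11 (TMM) to -0.01 (RLE), 0.04 (upper quartile) or -0.31 (library totals), and that in recovery against PdB from 0.06 to 0.33 with library totals. In PdB against DMSO the genes called split into 6655 higher and 7944 lower with TMM, and into 7510 and 7060 by the upper quartile or 5579 and 9098 by library totals. In recovery against PdB the split went from 7204 and 6563 to 8862 and 4876 with library totals. In bulk RNA, fewer cells expressing a gene and less RNA per cell cannot be told apart. Levels are shares of the reads counted, so none of these scalings can show a change in the total mRNA of the cells. Higher and lower here mean relative to the other genes of a library.

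PLAU (ENSG00000122861.16, chr10:73909177-73917497, plus strand, GRCh38) encodes urokinase, the enzyme that starts plasminogen activation at the cell surface. Its libraries stood at 378, 336 and 402 CPM in DMSO, at 49.7, 47.4 and 61.2 in PdB and at 82.7, 82.4 and 105 at recovery. The 3 groups did not overlap, and the order DMSO, recovery, PdB held for every library. Its log2 change was -2.82 ± 0.103 (SE, n = 3 against 3, edgeR quasi-likelihood test, adjusted p = 3e-14) in PdB. Of all genes tested, 3.16% had a change as low or lower. At recovery it was 4.12-fold below DMSO, a log2 change of -2.04 ± 0.0991 (adjusted p = 4.1e-12), as low as that of 2.18% of genes. Between PdB and recovery PLAU rose by 0.77 ± 0.0987 on the log2 scale (adjusted p = 1.4e-06), from a mean of 52.8 CPM ± 7.40 (SD, n = 3) to 90.2 ± 13.2, against 372 ± 33.6 in DMSO. In each group the library numbered 3 held the highest PLAU level.

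The longest annotated transcript of PLAU has 9 introns. Since PdB acts on splicing, PLAU was set beside the 665 other protein-coding genes tested whose longest transcript has that many introns. Their median log2 change in PdB was -0.28, and 3.61% of them changed as low as PLAU or lower. At recovery their median was -0.10 and 1.5% were as low. PLAU overlaps C10orf55, a protein-coding gene on the opposite strand whose counts fell from 554, 411 and 553 in DMSO to 84, 159 and 101 in PdB and to 70, 47 and 182 at recovery. The use of strand in counting is not given in the sources used here, so reads of PLAU and C10orf55 cannot be told apart, though PLAU had 21168 to 27841 counts in DMSO.

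PLAUR (ENSG00000011422.12, chr19:43646095-43670547, minus strand) encodes the urokinase receptor, a lipid-anchored protein that holds the enzyme at the membrane. It stood at 70.1, 74.2 and 84.7 CPM in DMSO, at 69.9, 68.9 and 79.1 in PdB and at 103, 101 and 99.5 at recovery. DMSO and PdB overlapped, and every recovery library was above every library of the other groups. The change in PdB, -0.07 ± 0.0696 on the log2 scale, did not pass the test (adjusted p = 0.37), and its 95% interval ran from -0.22 to 0.07. Its sign depended on the scaling: the log2 change was 0.02 with RLE factors, 0.08 with upper-quartile factors and -0.27 by library totals alone, which called it lower (adjusted p = 0.0044). At recovery PLAUR rose by 0.40 ± 0.0692 over DMSO (adjusted p = 5.3e-05) and by 0.48 ± 0.0695 over PdB (adjusted p = 7.2e-06). The gene overlaps the small RNA pseudogene RN7SL368P, which had at most 46 counts in a library.

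Receptor and ligand took separate courses. The ratio of PLAU to PLAUR counts within a library was 5.39, 4.52 and 4.75 in DMSO, 0.711, 0.688 and 0.774 in PdB and 0.802, 0.819 and 1.06 at recovery. Its log2 mean fell from 2.28 ± 0.131 (SD, n = 3) to -0.47 ± 0.0876 and stood at -0.17 ± 0.224 at recovery. None of the 3 pairs of groups overlapped. With 3 libraries against 3 an exact two-sided permutation test cannot go below p = 0.1, and it gave 0.1 for each pair (0.11 adjusted over the 12 comparisons of 4 ratios, 1 of which is not reported). Scaling between libraries cancels in such a ratio, and gene length does not.

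The partners of plasminogen activation were described from a list of 17 genes, 15 of which were tested. In PdB, 6 were called higher and 4 lower, beside 32% and 38.2% of all genes tested. The median log2 change of the list was 0.13, against -0.11 over all genes. At recovery 1 was higher than DMSO and 11 were lower, with a median of -0.68 against 0.03 over all genes, and against PdB 1 was higher and 9 lower, with a median of -0.91 against 0.06. Of all genes tested, 30.7% were higher and 30.5% lower than DMSO, and 34.6% higher and 31.5% lower than PdB. With library totals as the scaling, the PdB split became 4 higher and 5 lower. PLG, the substrate plasminogen, had 0 counts in every library. It is made mainly by the liver.

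PLAT, the tissue-type activator, followed PLAU down. It averaged 154 CPM ± 25.4 (SD, n = 3) in DMSO, 34.8 ± 9.94 in PdB and 83.0 ± 12.2 at recovery. The log2 change was -2.15 ± 0.152 in PdB (adjusted p = 3.5e-10) and -0.89 ± 0.145 at recovery (adjusted p = 3e-05). Per length, PLAU made up 84.5% ± 1.21 of the summed RPKM of PLAU and PLAT in DMSO, 77.6% ± 2.60 in PdB and 70.9% ± 0.0563 at recovery. PLGRKT, a plasminogen receptor, went from 5.41 to 4.05 and 0.898 CPM, and its fall at recovery was the lowest of the list (log2 change -2.59 ± 0.186, adjusted p = 7.9e-10). VTN, vitronectin, rose at low level from 0.796 to 2.26 and 2.02 CPM. The plasminogen-binding pair ANXA2 and S100A10 and the integrin ITGB1 rose in PdB and were below DMSO at recovery: ITGB1 averaged 1059.8, 1594 and 594 CPM. The rise of S100A10 in PdB did not pass the test with library totals (adjusted p = 0.055).

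**Figure D2:**
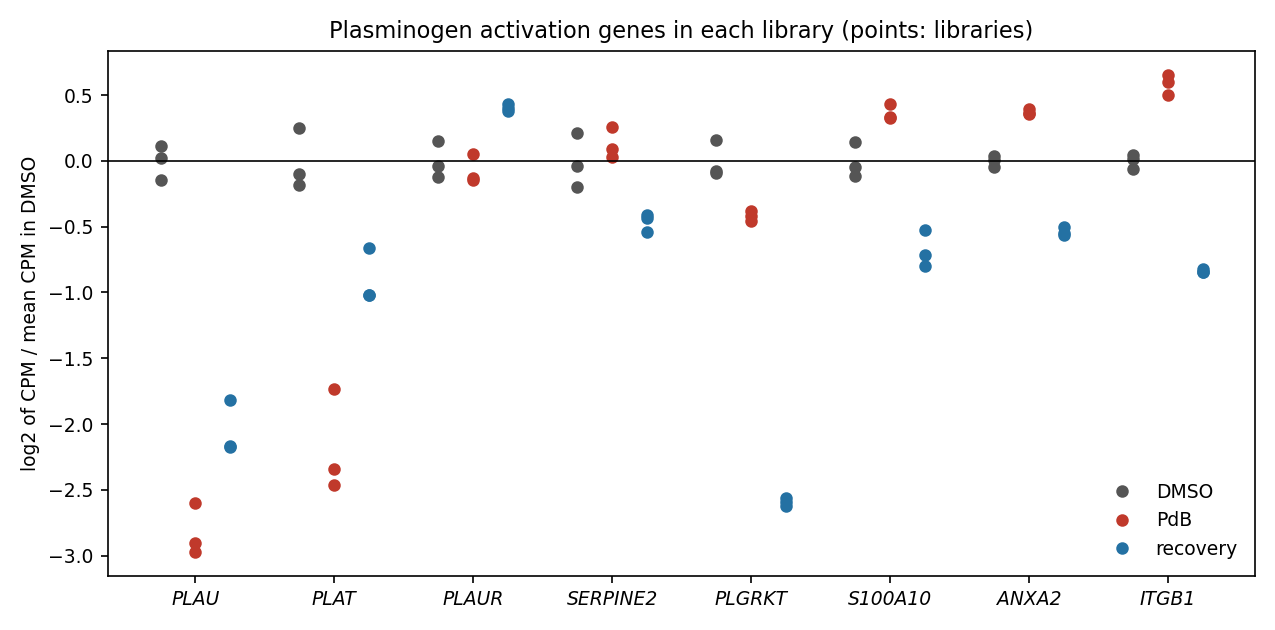
The vertical axis is log2 of the CPM of a library over the mean CPM in DMSO, so 0 is the DMSO mean, and each point is 1 library of DMSO, PdB or recovery for 8 genes of plasminogen activation. PLAU and PLAT are lowest in PdB, whereas PLGRKT, S100A10, ANXA2 and ITGB1 are lowest at recovery and PLAUR is highest there.

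**Figure D3:**
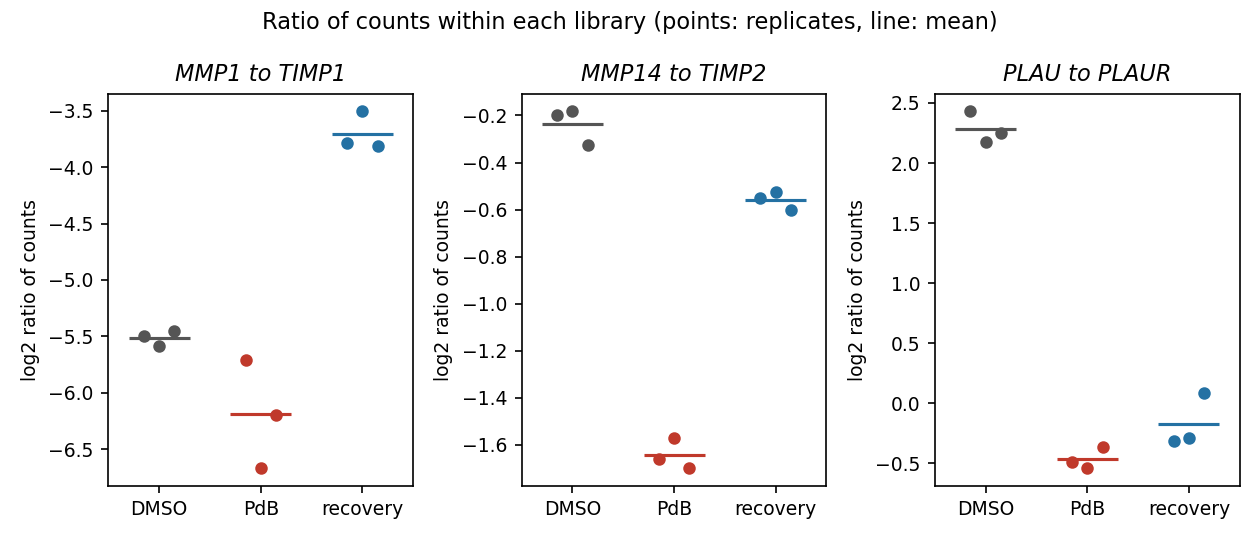
The vertical axis is the log2 ratio of the counts of the named genes within 1 library, points are libraries and lines are group means. The ratio of PLAU to PLAUR falls from 2.28 in DMSO to -0.47 in PdB and is still low at recovery, at -0.17, whereas that of MMP1 to TIMP1 is highest at recovery.

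MMP14 (ENSG00000157227.14, chr14:22836557-22849027, plus strand), the membrane-anchored collagenase, stood at 431, 420.2 and 421 CPM in DMSO, at 241, 252 and 237 in PdB and at 227, 228 and 229 at recovery. No DMSO library came near the other groups. The log2 change was -0.80 ± 0.0428 in PdB (adjusted p = 5.9e-12) and -0.89 ± 0.0429 at recovery (adjusted p = 3.6e-12), changes matched or exceeded downward by 30.2% and 16.4% of genes. Recovery and PdB did not overlap but lay within -0.09 ± 0.0427 of each other, which did not pass the test (adjusted p = 0.072). This last difference turned with the scaling: it was called lower with RLE (-0.14, adjusted p = 0.0094) and upper-quartile factors (-0.16, adjusted p = 0.002) and higher with library totals (0.18, adjusted p = 0.00082). It was also called lower with DESeq2 (adjusted p = 0.0013), among genes averaging 50 counts or more (adjusted p = 0.0014) and without PdB library 3 (adjusted p = 0.036). MMP14 has 9 introns, like PLAU, and 34.1% of the other genes with that many changed as low in PdB.

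The other 5 membrane-type metalloproteinases were expressed at low level, between 0.240 and 8.08 CPM in DMSO. In PdB 2 of them were called higher and 2 lower (1 and 3 with library totals), and at recovery 1 was higher (2 with upper-quartile factors) and 2 were lower than DMSO. Their median log2 change was -0.39 in PdB and 0.28 at recovery against DMSO. Of all genes tested, 70.1% and 61.2% were called in these comparisons. MMP25 rose from 0.240 to 1.26 and 1.22 CPM (log2 change 2.37 ± 0.440 in PdB, adjusted p = 1e-04). MMP17 fell from 1.69 to 0.654 and 0.737 CPM. MMP16, which like MMP14 can activate pro-MMP2, stood at 6.13 CPM in DMSO, 4.69 in PdB and 1.82 at recovery, a log2 change of -1.75 ± 0.212 (adjusted p = 9.1e-07) at recovery against DMSO. MMP15 was the largest rise from PdB to recovery, from 3.55 to 6.93 CPM. At 424 CPM ± 5.93 (SD, n = 3) in DMSO, MMP14 was the only abundant member of this class in these 9 libraries.

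MMP1 (ENSG00000196611.6, chr11:102789920-102798160, minus strand) encodes interstitial collagenase, which opens the triple helix of fibrillar collagen. It stood at 4.14, 3.96 and 4.81 CPM in DMSO, at 6.80, 3.57 and 5.13 in PdB and at 14.2, 16.9 and 14.7 at recovery. DMSO and PdB overlapped, and all recovery libraries lay above both. Its change in PdB, 0.26 ± 0.180 on the log2 scale, did not pass the test (adjusted p = 0.2, 95% interval -0.12 to 0.64). Leaving out each library in turn, this change ran from 0.0074 to 0.465, with adjusted p up to 0.97. The top of that range came without PdB library 2 (adjusted p = 0.012). At recovery MMP1 was 3.55-fold above DMSO, a log2 change of 1.83 ± 0.176 (adjusted p = 4.4e-08), and 1.56 ± 0.175 above PdB (adjusted p = 2.5e-07). As high a rise at recovery was seen in 7.48% of all genes and in 2.71% of the other 665 genes with 9 introns.

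MMP3 (ENSG00000149968.12, chr11:102835801-102843803, minus strand) encodes stromelysin-1, a broad matrix protease that can also activate pro-MMP1. It had 0, 0 and 0 counts in DMSO, 0, 0 and 12 in PdB and 12, 14 and 14 at recovery. The recovery mean of 0.208 CPM ± 0.0154 (SD, n = 3) was at least 4.62-fold higher than the floor of 3 counts in each DMSO library, 0.0449 CPM on average. In PdB all 12 counts came from library 3, which at 0.231 CPM stood above every recovery library. Per length MMP3 reached 0.101 RPKM at recovery, beside 7.76 for MMP1.

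MMP2 (ENSG00000087245.13, chr16:55389700-55506691, plus strand), gelatinase A, had 3, 0 and 5 counts in DMSO, 0, 0 and 2 in PdB and 0, 2 and 6 at recovery. No level above the floor could be told apart between groups. The substrate that MMP14 and TIMP2 jointly activate was near 0 in these libraries, while MMP14 and TIMP2 were abundant. MMP2 overlaps MMP2-AS1, AC007336.2 and AC007336.3, each at 0 counts throughout.

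MMP1 and MMP3 lie in a cluster of 9 metalloproteinase genes on chr11. The other 7 (MMP7, MMP20, MMP27, MMP8, MMP10, MMP12 and MMP13) had at most 25 counts in any library, that value being MMP13 in PdB library 3, which also held the 12 MMP3 counts. Both genes overlap the pseudogene WTAPP1 on the opposite strand, which had 14 counts in that same library and 0 in the other PdB libraries, so at this depth MMP3 and WTAPP1 reads cannot be told apart. Of the 13 other secreted metalloproteinases 3 passed the filter, MMP11, MMP19 and MMP21. In PdB none was called with edgeR, beside 70.1% of all genes tested, or with DESeq2, and none had an unadjusted p under 0.05. MMP19 rose at recovery from 6.32 to 8.51 CPM (log2 change 0.43 ± 0.127, adjusted p = 0.0067).

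Markers of fibroblasts, cells known for MMP1 and MMP3, were read beside these values. Their 5 genes summed to 14.0 to 17.8 CPM in DMSO, 3.37 to 6.46 in PdB and 30.7 to 34.3 at recovery. In recovery against DMSO, 3 of the 4 tested were called higher, beside 30.7% of all genes tested. COL1A1 went from 8.63 to 2.69 and 23.9 CPM and COL3A1 reached 1.145 CPM at recovery, while the defining marker DCN had at most 8 counts in any library. Leukocyte and macrophage markers summed to 99.3 to 108 CPM in DMSO, 124 to 140.4 in PdB and 83.4 to 87.4 at recovery, nearly all of it CD68, with PTPRC at no more than 33 counts. Endothelial markers summed to at most 5.18 CPM. The part of any of these in the results was not tested.

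TIMP1 (ENSG00000102265.12, chrX:47582313-47586789, plus strand), an inhibitor of most soluble metalloproteinases, stood at 187, 190.1 and 211 CPM in DMSO, at 355, 363 and 377 in PdB and at 197, 192 and 206 at recovery. PdB libraries lay above all others, and recovery overlapped DMSO. The log2 change was 0.90 ± 0.0522 in PdB (adjusted p = 2.1e-11) and 0.02 ± 0.0520 at recovery against DMSO (adjusted p = 0.8), with a 95% interval of -0.09 to 0.13. From PdB to recovery TIMP1 fell by 0.88 ± 0.0522 on the log2 scale (adjusted p = 3.6e-11). TIMP1 has 3 introns, and the 1136 other genes with that many had a median log2 change of 0.19 in PdB, with 23.9% of them as high as TIMP1. The gene lies within SYN1 on the opposite strand, which had at most 52 counts in a library.

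TIMP2 (ENSG00000035862.12, chr17:78852977-78925387, minus strand) inhibits metalloproteinases and also bridges pro-MMP2 to MMP14. It stood at 494, 477 and 529 CPM in DMSO, at 759, 748 and 768 in PdB and at 333, 329 and 349 at recovery. The 3 groups did not overlap, so TIMP2 passed through its DMSO level and ended below it. The log2 change was 0.60 ± 0.0459 in PdB (adjusted p = 1e-09), -0.57 ± 0.0460 at recovery against DMSO (adjusted p = 3.9e-09) and -1.17 ± 0.0464 at recovery against PdB (adjusted p = 1.4e-13). The 1107 other genes with its 4 introns had medians of 0.08 in PdB and 0.08 at recovery, and 32% were as high in PdB and 22.7% as low at recovery. Within its span, on the same strand, lies CEP295NL, which went from 79.2 to 120.2 and 60.5 CPM, so reads of TIMP2 could be shared with CEP295NL. On the opposite strand lie AC022966.1, with 217 to 498 counts, and AC100788.1 and AC100788.2, with at most 10.

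TIMP3 (ENSG00000100234.12, chr22:32801701-32863043, plus strand) is the inhibitor that binds to the matrix and also restrains ADAM17. It stood at 214, 172 and 277.5 CPM in DMSO, at 153, 129 and 209.7 in PdB and at 149.8, 139 and 194 at recovery. The groups overlapped, and in each the library numbered 3 was highest and that numbered 2 lowest. TIMP3 was called lower in PdB (log2 change -0.44 ± 0.161, adjusted p = 0.023) and at recovery (-0.46 ± 0.161, adjusted p = 0.019), and from PdB to recovery it changed by -0.02 ± 0.161 (adjusted p = 0.91). Both calls against DMSO were lost without DMSO library 3, where the changes were -0.25 and -0.27 (adjusted p = 0.17 and 0.16), and with DESeq2 (adjusted p = 0.24 and 0.16). The PdB call was also lost with RLE (adjusted p = 0.062) and upper-quartile factors (adjusted p = 0.13), and that at recovery with upper-quartile factors (adjusted p = 0.05) and library totals (adjusted p = 0.064). Leaving out PdB library 1 or 2 also ended the call in PdB (adjusted p = 0.069 and 0.12), and leaving out recovery library 1 or 2 that at recovery (adjusted p = 0.071 and 0.098). TIMP3 was below DMSO within each library number, and with the number as a block both calls held, with the adjusted p given in the last section. The gene lies within SYN3 on the opposite strand, which had at most 8 counts in a library.

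The makeup of the TIMP pool shifted with these changes. Per length, TIMP1 made up 48.3% ± 1.73 (SD, n = 3) of the summed RPKM of TIMP1, TIMP2 and TIMP3 in DMSO, 58.2% ± 1.09 in PdB and 57.7% ± 1.24 at recovery. TIMP2 made up 33.7%, 33.1% and 26.8%. TIMP3 made up 18.1% ± 2.73, 8.69% ± 1.83 and 15.6% ± 1.89. TIMP3 held 15.3% to 20.7% of the pool across DMSO libraries and 7.07% to 10.7% across PdB libraries, which did not overlap.

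**Figure D4:**
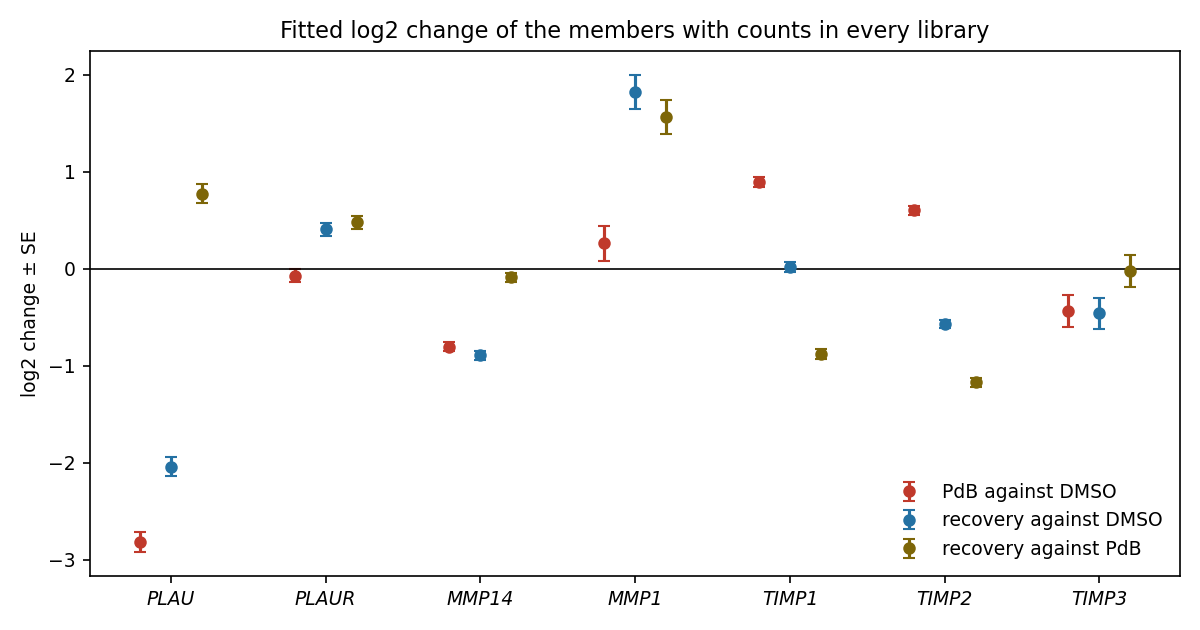
Points are fitted log2 changes with their SE as bars for the 7 genes with counts in every library, coloured by comparison; the horizontal line is no change. PLAU is far below the line in both comparisons with DMSO, at -2.82 and -2.04, TIMP1 is at 0.90 in PdB and 0.02 at recovery, and TIMP2 changes sign between PdB and recovery.

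Proteases and inhibitors were also compared within libraries. The log2 ratio of MMP14 to TIMP2 counts was -0.24 ± 0.0797 (SD, n = 3) in DMSO, -1.64 ± 0.0653 in PdB and -0.56 ± 0.0400 at recovery, a fall of 2.65-fold and then a return to 1.25-fold below DMSO. The log2 ratio of MMP1 to TIMP1 was -5.51 ± 0.0648 in DMSO, -6.19 ± 0.480 in PdB and -3.70 ± 0.171 at recovery, so that it was 3.50-fold higher at recovery than in DMSO. In both ratios no pair of groups overlapped, with an exact two-sided permutation p of 0.1 each, the smallest possible, and 0.11 adjusted over 12 comparisons. The partial return of MMP14 to TIMP2 came with a fall of TIMP2, since MMP14 itself was at 228 CPM ± 1.11 at recovery and 243 ± 7.83 in PdB.

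**Figure D5:**
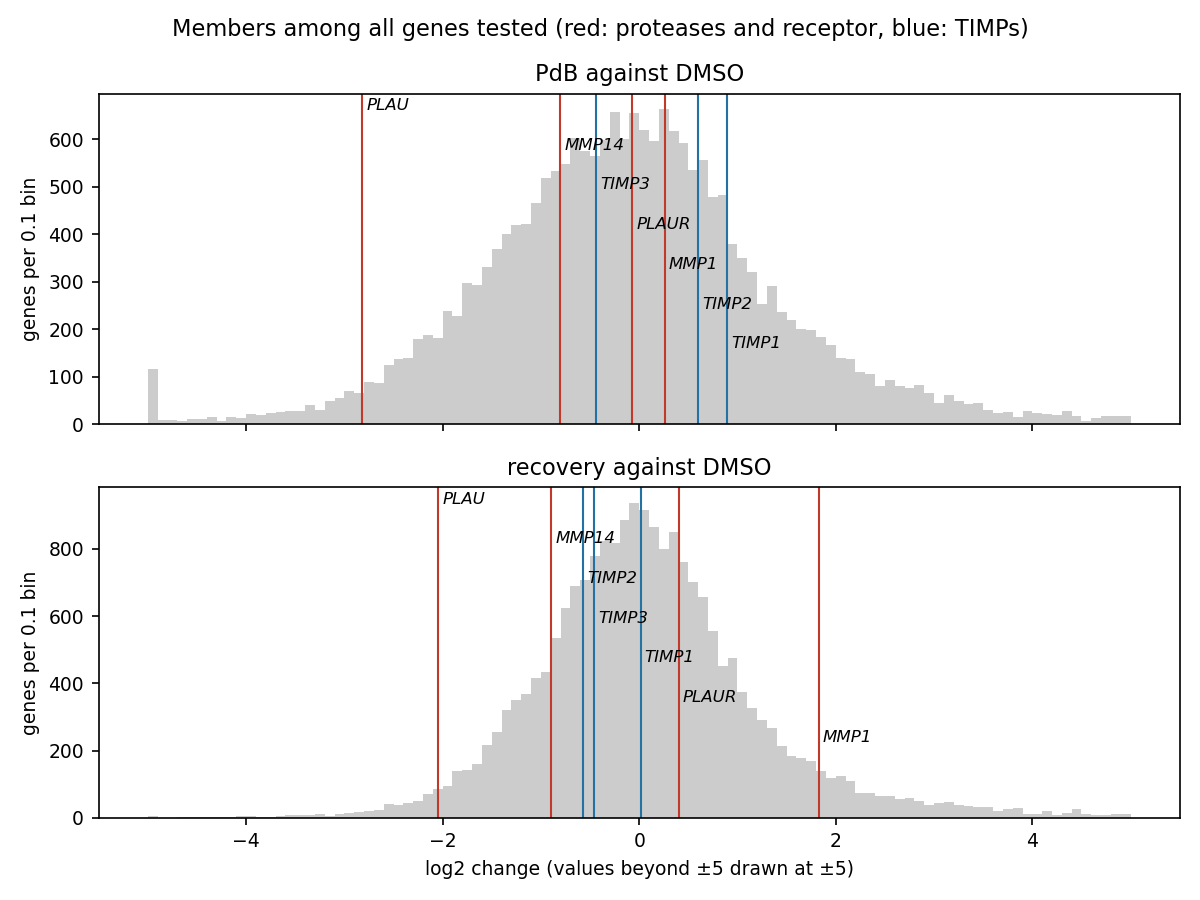
Grey bars count the genes tested per 0.1 of log2 change, in PdB against DMSO (top) and recovery against DMSO (bottom), with values beyond 5 in size drawn at 5; red lines mark the proteases and the receptor, blue lines the TIMPs. PLAU lies in the lower tail of both, MMP1 in the upper part at recovery, and the other lines lie within the bulk of all genes. MMP3, which was at 0 in DMSO, is not drawn.

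Among 7 other inhibitors and activators of metalloproteinases, 2 were called higher and 2 lower in PdB, and likewise 2 and 2 at recovery against DMSO, with medians of -0.20 and -0.10. The count of lower genes was 1 in each with RLE factors, upper-quartile factors or DESeq2, and 1 at recovery with library totals. Of all genes tested, 70.1% were called in PdB and 61.2% at recovery against DMSO. RECK, a membrane-anchored inhibitor of MMP14 and MMP2, stood at 9.28, 6.79 and 10.2 CPM in DMSO, 2.90, 3.27 and 3.06 in PdB and 2.84, 3.57 and 3.45 at recovery. Like MMP14 it fell in PdB (log2 change -1.51 ± 0.173, adjusted p = 3.1e-07) and was still low at recovery (-1.41 ± 0.171, adjusted p = 9.1e-07). TIMP4 was at 1.04 CPM in DMSO, 0.929 in PdB and 0.490 at recovery. Neither difference from DMSO passed the test (adjusted p = 0.76 and 0.063). FURIN, the convertase that activates pro-MMP14, went from 95.9 to 83.7 and 154 CPM, and its rise at recovery was called (log2 change 0.69 ± 0.0581, adjusted p = 7.5e-09). Its fall in PdB was not called with RLE (adjusted p = 0.13) or upper-quartile factors (adjusted p = 0.48). PCSK7 was the largest rise of the list in PdB, from 49.6 to 85.4 CPM. BSG, an inducer of metalloproteinases also known as EMMPRIN, rose from 629 to 957 CPM and was at 589 at recovery. The difference of BSG between recovery and DMSO (log2 change -0.10 ± 0.0395, adjusted p = 0.045) did not pass with RLE factors (adjusted p = 0.31), upper-quartile factors (adjusted p = 0.69) or library totals (adjusted p = 0.62).

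Of 18 ADAM and ADAMTS proteases, 15 were tested. In PdB 4 were called higher and 8 lower (median log2 change -0.53), and at recovery 2 were higher and 7 lower than DMSO (median -0.75). The count of higher ADAM and ADAMTS genes at recovery was 3 with RLE factors, library totals or DESeq2 and 4 with upper-quartile factors. The share of all genes called was 70.1% in PdB and 61.2% at recovery. ADAM19 averaged 65.8 CPM in DMSO, 9.07 in PdB and 67.9 at recovery: its log2 change in PdB was -2.86 ± 0.112 (adjusted p = 7.2e-14), beside -2.82 for PLAU, and at recovery 0.05 ± 0.0984 against DMSO (adjusted p = 0.71). ADAM12 fell from 6.52 to 2.33 and 0.601 CPM. ADAMTS1, whose substrates include the proteoglycans aggrecan and versican, rose from 4.28 to 19.9 and 17.7 CPM (log2 change 2.22 ± 0.105 in PdB, adjusted p = 1.1e-12). Among membrane serine proteases and their inhibitors 3 of 6 were tested: ST14, matriptase, rose at recovery from 1.20 to 3.30 CPM, and SPINT2 went from 169 to 219 and 82.3 CPM. SPINT1 stood at 2.66, 1.52 and 4.44 CPM.

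The 16 transcription factors listed for binding protease promoters were all tested. In PdB 9 were called higher and 4 lower, with a median of 0.34, and at recovery 6 were higher and 6 lower than DMSO, with a median of -0.06. FOSB rose most, from 1.70 to 6.18 and 8.44 CPM (log2 change 1.86 ± 0.216 in PdB, adjusted p = 3.4e-07). RUNX2 stood at 45.2 CPM in DMSO, 157 in PdB and 43.4 at recovery, the largest fall of the list from PdB to recovery (log2 change -1.85 ± 0.0669, adjusted p = 4.1e-14). ETV1, an ETS factor, was the largest fall in PdB (log2 change -2.31 ± 0.0885, adjusted p = 5.8e-14), from 52.3 to 10.6 CPM. It stood at 25.3 CPM at recovery, an order of groups like that of PLAU and PLAT. A link between ETV1 and PLAU was not tested. Under library totals the PdB split was 8 higher and 7 lower. With TMM, 32% of all genes tested were higher and 38.2% lower in PdB, and 30.7% and 30.5% at recovery against DMSO.

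The genes most like each member were sought by Pearson's r of log2 CPM over the 9 libraries among 11077 genes. As the libraries fall into 3 groups, such an r mostly follows the order of the groups, and no p is given. For PLAU they were PODXL and DPYSL2 (both r = 0.997), and DPYSL2 went from 186 to 42.1 and 64.5 CPM. For MMP14 they were R3HDM2 (r = 0.998) and KIFC3 (r = 0.997), for PLAUR ZNF697 and PDLIM1 (both 0.983), and for MMP1 ZNF101 (0.990) and DCTN6 (0.987). For TIMP1 they were ZC3H6 and CFL1 (both 0.995), and for TIMP2 CALR and MARCHF4 (both 0.998). CALR stood at 1082, 1908 and 633 CPM in DMSO, PdB and recovery. For TIMP3 the highest were HK2 (0.940) and KREMEN1 (0.934). For MMP3, near the detection limit with counts in only 4 libraries, they were KCNQ1OT1 (0.960) and PJA1 (0.954). The r of MMP3 follows mainly which libraries held any counts.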

How the data were processed

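Of the 9 libraries of polyadenylated RNA, 3 belong to each group. The authors deposited whole-number read counts per gene, not normalised, and every column was matched to a sample. The submitters' processing notes name hg38 and the tools STAR (2.7.9a), fastp (0.23.2), featureCounts (2.0.3), Picard and DESeq2 (1.30.0). Settings, annotation release and use of strand: not given in the sources used here, so reads shared by overlapping genes are uncertain. Symbols were found for 60507 gene IDs, and 58440 IDs matched GENCODE 29, from which coordinates, exon lengths and introns (those of the longest transcript) were taken.

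Counts were filtered with filterByExpr and scaled by TMM, with mean factors of 1.03 (DMSO), 0.898 (PdB) and 1.08 (recovery). They were tested with edgeR 4.0.16 in R 4.3.3 (glmQLFit and glmQLFTest, all 9 libraries in 1 fit, Benjamini-Hochberg adjustment over 20812 genes). The common biological coefficient of variation was 0.111. The SE is the size of the log2 change over the square root of the F statistic, and 95% intervals use the degrees of freedom of the test. Ratios use counts with 0.5 added and an exact permutation test over libraries. Zero counts were compared with a floor of 3 counts in each library. The floor covers counting error alone, because reads without molecular tags are not independent molecules. Within groups every pair of libraries differed by more than counting noise, so none was taken for a second deposit.

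The genes and lists were chosen with earlier results of these data known. All 9 genes are named. From each wider list the largest rise and fall that passed the test in each comparison are named, as are TIMP4 and RECK, and, for each of the 8 tested genes, the 2 genes most alike in log2 CPM (prior count 2) with a mean of at least 100 counts. S100A10, ANXA2, ITGB1, PLG, MMP11, MMP21 and the marker and overlapping genes are named beyond that rule. The alternatives were other scalings, filters and thresholds, DESeq2 1.42.0, fewer libraries and the replicate number as a block. In simulated counts with known changes, the share recovered for PdB against DMSO was 79.1% at 1.5-fold and 100% at 2-fold and 4-fold, with 7% false calls, over 19101 genes. Few genes were changed there (67 at 1.5-fold), none of them near 0 in DMSO, with the same coefficient of variation for every gene. In the data 70.1% of genes were called, so these shares cannot be carried over to them. Protein sequences were not analysed here. Of the genes the rule names, 1 and the ratio that uses it are not reported here.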

Additional observations from a re-analysis of the deposited data

How the results depend on the processing

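The counts of all genes called stayed within 1.5 times, and the 3 ratios given here kept their direction, under every alternative run. In PdB against DMSO, the calls of PLAU, MMP14, TIMP1 and TIMP2 held under every alternative, and that of TIMP3 did not. In recovery against DMSO, those of PLAU, MMP14, TIMP2, MMP1 and PLAUR held, and that of TIMP3 did not. In recovery against PdB, those of PLAU, PLAUR, MMP1, TIMP1 and TIMP2 held. Of 452 log2 changes of members under alternatives, 405 kept direction and side of the threshold. That tally still includes MMP3, which is otherwise described without a test, so it is a description only. PLAUR in PdB against DMSO, not called, turned to 0.0241 with RLE factors, 0.0242 with DESeq2, 0.0789 with upper-quartile factors, 0.0507 with a mean of at least 50 counts and 0.0061 with only the 6 libraries compared. Leaving out each replicate in turn, TIMP1 in recovery against DMSO ranged from -0.0168 to 0.0683, and TIMP3 in recovery against PdB from -0.171 to 0.195. With library totals, recovery against PdB became 0.178 for MMP14 and 0.24 for TIMP3. An alternative chosen after seeing the data left out the 3 libraries numbered 3: TIMP3 in recovery against PdB was then 0.0381, and the TIMP3 calls against DMSO held (adjusted p = 0.00023 in PdB and 0.00061 at recovery). With FDR 0.01 the calls of both TIMP3 falls were lost. MMP3 has no value with a mean of at least 50 counts. The cause of these shifts was not tested. The depth limits MMP2 and MMP3, at no more than 14 counts in a library.

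Libraries sharing number 2 or 3 deviated together (r from 0.110 to 0.237), while those sharing number 1 did so less (0.0052 to 0.0600, against -0.223 to 0.103 for different numbers). The labels state no shared culture or day, and as not every same-numbered r was above 0.1, the numbers were not taken as pairs. With the replicate number as a block, 14628 genes were called in PdB against DMSO, 12922 in recovery against DMSO and 13871 in recovery against PdB. TIMP3 was below DMSO within each number, and with the block its falls had an adjusted p of 9.5e-08 in PdB and 9.6e-08 at recovery. The other calls of the 7 members tested without MMP3 held with the block as well.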
